A study of Rattus norvegicus with 4 samples.

Results

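Glucuronosyltransferases and sulfotransferases were examined in the liver of 4 untreated rats through 7 genes, the UDP-glucuronosyltransferases Ugt1a6 and Ugt2b1 and the cytosolic sulfotransferases Sult1a1, Sult1b1, Sult1c2, Sult1e1 and Sult4a1. A probe set counted for a gene where the platform annotation gave that gene as its only symbol, older names included. By this rule 5 of the 7 genes had a dedicated probe set, 1 each, out of 10412 genes represented on the array. Ugt1a6 and Sult1c2 were named only on probe sets shared with other genes, whose values are given separately. The animals were male Sprague-Dawley rats aged 10 to 12 weeks, a common outbred laboratory strain, fed standard chow freely and given no treatment. Each liver was hybridised to its own Affymetrix expression array, so the 4 arrays form 1 group with no comparison between conditions. An animal and its array cannot be told apart. The series is titled for a study of drug detoxification in the endoplasmic reticulum by protein and transcript measurements, and only the transcript values were analysed here.

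Both enzyme families make drugs, hormones and bile pigments more soluble by attaching a charged group. UDP-glucuronosyltransferases sit in the membrane of the endoplasmic reticulum and transfer glucuronic acid from UDP-glucuronate, made in the cytosol, to substrates in the lumen. Cytosolic sulfotransferases transfer sulfate from PAPS, the activated form of sulfate, and act outside the organelle. The conjugates leave the hepatocyte through efflux pumps into bile or blood.

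Values are log2 signals, given for rats 1 to 4 (replicates 1 to 4) and as mean ± SD. Probes differ in how strongly they bind, so signals are not compared as amounts of transcript between genes. A probe set was called above background where its mean exceeded a log2 signal of 9.05. That level is the 95th percentile of 85 probe sets for 65 genes typical of nerve, muscle, sperm or eye, and it too sets different probe sets side by side. Without 1 of those genes, Myh1, it was 8.29, so calls for signals between 8.29 and 9.05 turned on that gene. Some probe sets, called flat here, varied by less than 0.001 over the 4 arrays. They made up 23.3% of the probe sets above background, none of the members among them, and their values are given without an SD. The hepatocyte markers measured were above background for 9 of 9 genes, with albumin (Alb) at 15.06 ± 0.02 (SD, n = 4). Kupffer cell markers were above it for 8 of 8 genes, endothelial markers for 3 of 6, stellate cell markers for 2 of 10, and the red blood cell markers for 1 of 4. Bile duct and lymphocyte markers were below it for all 5 and all 9 genes measured. In whole liver, fewer cells of a type and less RNA per cell cannot be told apart.

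Of the 5 members with a dedicated probe set, 4 were above background and Sult4a1 was below it. Over the whole array 20% of genes and 16.4% of probe sets were above background. The values of the members are shown by rat in the plot of members.

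**Figure D1:**
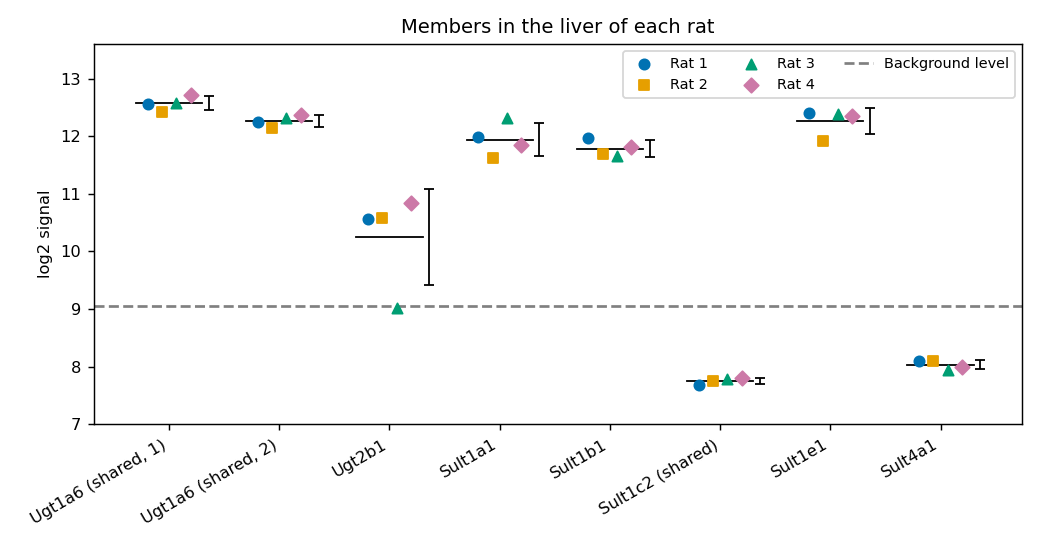
Log2 signal (vertical axis) of each member probe set in the liver of each rat (points), with the mean (horizontal line) and SD over 4 rats (error bar beside it). The dashed line is the background level of 9.05, and shared marks a probe set that names further genes. Rat 3 lies at 9.02 for Ugt2b1, while the other rats lie between 10.57 and 10.84, and rat 2 lies lowest for Sult1e1.

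Among the glucuronosyltransferases, Ugt2b1, a rat enzyme known for conjugating testosterone and morphine, had log2 signals of 10.57, 10.58, 9.02 and 10.84 in rats 1 to 4 (10.25 ± 0.83, SD, n = 4). Rat 3 was thus the low one, and its value lay just under the background level, while the other 3 rats were close to each other. As measured, the signal in rat 3 was 1.64 log2 units, or 3.12-fold, below the mean of the other rats. Counted only to the background level, it was at least 1.61 log2 units, or at least 3.05-fold, below that mean. Without Myh1 the level was 8.29, and the value of rat 3 lay above it. Of the 2612 probe sets above background, 6 had a larger SD than that of Ugt2b1. Without rat 3 the SD of Ugt2b1 was 0.16, so 1 liver accounts for most of its spread. Each liver was measured once and Ugt2b1 has 1 probe set, so this difference has no second measurement.

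In 4 probe sets above background the signal of rat 3 lay at least 1 log2 unit below every other rat. They were that of Ugt2b1, by 1.55, one naming the metallothionein Mt1 together with Ttr and Mt1f, by 1.61, that of the metallothionein Mt2A and one without a gene symbol, both by 1.06, named after their values were seen. By the same measure 2 probe sets were low in rat 1, 0 in rat 2 and 1 in rat 4. In rat 3 the stellate cell markers also had their lowest summed signal. The log2 of that sum was 12.18, 12.42, 11.86 and 12.42 in rats 1 to 4, over 10 markers of which 2 were above background. The brightest, Col3a1, had 10.80, 11.15, 10.23 and 11.15. Like it, Col1a1, Col1a2, Dcn, Lum and Reln were lowest in rat 3. Acta2 was highest in rat 3, Pdgfrb was lowest in rat 1, and Des and Lrat were flat. The log2 sum of the hepatocyte markers ran from 17.24 to 17.26, while Apoa1 among them was at 12.34 in rat 1, against 12.92 to 13.03. Such a sum rests mostly on the brightest markers and does not measure the share of a cell type. The part of stellate cells in the Ugt2b1 signal was not tested.

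Ugt1a6 conjugates planar phenols and is known as a target of the aryl hydrocarbon receptor. Its symbol stood on 2 probe sets, each of which named the same 8 genes of the Ugt1a locus. In RefSeq's table for the rat assembly GRCr8, all 8 of these genes end at the same base. Alternative first exons joined to common last exons are the known structure of this locus, and the signal cannot be assigned to Ugt1a6 or to any other of them. They include Ugt1a1, the enzyme that conjugates bilirubin. The brighter probe set had log2 signals of 12.57, 12.42, 12.57 and 12.72 in rats 1 to 4 (12.57 ± 0.12, SD, n = 4). The dimmer had 12.24, 12.14, 12.31 and 12.37 (12.27 ± 0.10, SD, n = 4). Both were above background in every rat, and both were lowest in rat 2 and highest in rat 4. Their deviations from their own means differed by a root mean square of 0.04. The aryl hydrocarbon receptor (Ahr) itself had a flat signal of 8.07, below background.

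Ugt2b1 belongs to a stretch of chromosome 14 that in GRCr8 runs from Sult1e1 through Sult1d1 and Sult1b1 to the Ugt2a and Ugt2b genes. Of the 17 protein-coding genes from Sult1e1 to Ugt2b34l1, 14 carry a Ugt or Sult symbol, and 9 of these had a dedicated probe set. The mean was above background for 6 of the 9, namely the members Sult1e1, Sult1b1 and Ugt2b1 and also Ugt2b, Ugt2b15 and Ugt2b35. The brighter probe set of Ugt2b, an enzyme that conjugates androsterone, had log2 signals of 12.19, 12.04, 12.10 and 12.10 in rats 1 to 4. Rat 3 did not stand apart in it. For Ugt2b35 the signals were 12.23, 12.08, 11.88 and 11.96, and for Ugt2b15 they were 11.05, 11.03, 10.87 and 10.91. Rat 3 was the lowest in both of these, by far less than for Ugt2b1. Its deviations from the gene means were -0.01 for Ugt2b, -0.15 for Ugt2b35 and -0.09 for Ugt2b15, against -1.23 for Ugt2b1. Sequences of the Ugt2b genes are closely related, and how far their probes detect each other was not tested.

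**Figure D2:**
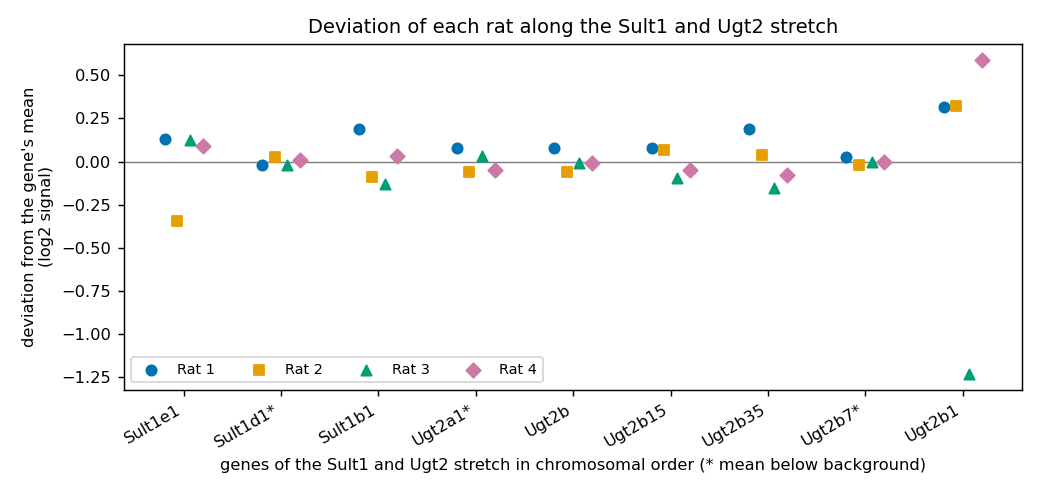
Deviation of each rat from the mean of the gene (vertical axis, log2 signal) for the 9 genes of the Sult1 and Ugt2 stretch with a dedicated probe set, in chromosomal order (horizontal axis, not to scale). Points are single rats, and an asterisk marks a mean below background. Rat 3 lies at -1.23 for Ugt2b1 and rat 2 at -0.34 for Sult1e1, while the other 7 genes stay within 0.19 of their means.

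The sequence before the start of Ugt2b1 is shown beside that of Ugt2b, because these genes of the same stretch differed in rat 3. They are not adjacent, and other Ugt2b genes lie between them. Each line gives the 250 bases before the annotated start in the direction of the gene, from the RefSeq promoter table of GRCr8. These are reference sequences, not those of the 4 rats, and the cause of the difference in rat 3 was not tested. Capitals mark matches on either strand to any of 5 sets of letters, each known for a class of factors. They are TATAAA, known as the core promoter box, GTTAAT for HNF1, TGTTTGC for FOXA, TTGCNNAA for C/EBP, and AGGTCA for nuclear receptors.
Ugt2b1 (GRCr8, chr14:21378632-21378881, plus strand): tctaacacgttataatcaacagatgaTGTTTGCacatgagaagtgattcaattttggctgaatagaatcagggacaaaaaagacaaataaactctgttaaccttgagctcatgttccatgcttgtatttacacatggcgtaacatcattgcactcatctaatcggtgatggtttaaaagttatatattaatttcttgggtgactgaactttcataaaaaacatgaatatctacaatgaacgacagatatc
Ugt2b (GRCr8, chr14:20985199-20985448, plus strand): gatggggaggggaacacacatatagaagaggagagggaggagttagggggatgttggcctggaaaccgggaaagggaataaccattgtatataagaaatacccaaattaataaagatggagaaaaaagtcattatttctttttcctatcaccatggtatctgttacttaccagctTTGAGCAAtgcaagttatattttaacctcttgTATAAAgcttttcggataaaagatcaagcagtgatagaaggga
In the window of Ugt2b1 the letters TGTTTGC begin 224 bases before the start, and none of the other sets is found. Ugt2b has TATAAA 43 bases and a match to TTGCNNAA 75 bases before its start. Of 27457 rat promoters of this length, 4.09% hold TGTTTGC, 13.1% TATAAA, 9.2% TTGCNNAA, 6.46% GTTAAT and 13.7% AGGTCA. No 2 marked matches overlap. Searched too, but not in capitals, were GGGCGG for Sp1, held by 32.4% of the promoters, CCAAT by 34.3%, GCGTG for the aryl hydrocarbon receptor by 27.2%, and TTCNNNGAA for STAT factors by 7.52%. None of these 4 is in the window of Ugt2b1 or Ugt2b. A match is only a run of letters and shows no binding.

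Among the sulfotransferases, Sult1a1, the main enzyme for simple phenols, had log2 signals of 11.98, 11.63, 12.31 and 11.84 in rats 1 to 4 (11.94 ± 0.28, SD, n = 4). All were above background, with rat 3 the highest and rat 2 the lowest. Sult1b1, known for sulfating thyroid hormones, had 11.97, 11.69, 11.65 and 11.82 (11.78 ± 0.14, SD, n = 4). Here rat 1 was the highest and rat 3 the lowest, so the order of the rats was not that of Sult1a1. Sult1e1, the estrogen sulfotransferase, had 12.40, 11.92, 12.39 and 12.36 (12.27 ± 0.23, SD, n = 4). Rat 2 was the low one, 0.46 log2 units or 1.38-fold below the mean of the others, and without it the SD was 0.02. In rat 2 the Kupffer cell markers had their highest summed signal, 13.19 on the log2 scale against 12.95 to 13.07 in the other rats. Of these markers Cd68 was highest in rat 3 and Cd74 in rat 4, and Csf1r was flat. The part of Kupffer cells in the lower Sult1e1 signal was not tested.

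Sult4a1, a brain sulfotransferase without a well-established substrate, had log2 signals of 8.10, 8.10, 7.95 and 7.99 (8.03 ± 0.08, SD, n = 4). It lay below background in every rat. The 27 control probe sets for Bacillus transcripts had means from 6.48 to 7.75, so a signal below the background level does not show that the transcript was absent. Sult1c2 was named on 1 probe set together with RGD1562392, which GRCr8 lists as an older name of the neighbouring gene Sult1c2a. That shared probe set had 7.68, 7.74, 7.78 and 7.80 (7.75 ± 0.05, SD, n = 4), below background in every rat and near the top of the Bacillus controls.

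Of the 4 members above background, 3 had an SD of at least 0.2, namely Ugt2b1, Sult1a1 and Sult1e1, while 10.5% of all genes above background did. In 2 of the 4, Ugt2b1 and Sult1e1, 1 rat stood apart from the other 3 by Dixon's gap over the range at its 95% critical value. Over all probe sets above background that were not flat, this held for 5.29%. The median SD was 0.23 over the 5 members with a dedicated probe set and 0.07 over all genes above background that were not flat. The members were chosen with such values known, so these shares only describe them.

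For the 3 members with an SD of at least 0.2, the genes with the most similar deviations over the 4 rats were taken from 216 other genes. Those were above background with an SD of at least 0.2 themselves. Likeness was the root mean square difference between the deviations of both genes from their own means. For Sult1a1 the nearest gene was Papss2, the PAPS synthase that makes the sulfate donor, with a difference of 0.04. Papss2 had log2 signals of 10.60, 10.22, 10.95 and 10.39 in rats 1 to 4 (10.54 ± 0.32, SD, n = 4). Like Sult1a1 it was highest in rat 3 and lowest in rat 2, which so small a difference implies. The log2 sum of the endothelial markers also was highest in rat 3, while rats 1 and 2 hardly differed. It was 11.51, 11.51, 11.62 and 11.52 in rats 1 to 4, over 6 markers of which 3 were above background. Of those 3, Eng had 9.59, 9.39, 9.87 and 9.41, Egfl7 had 8.95, 9.20, 9.01 and 9.11, and Kdr was flat at 9.56. Egfl7 was thus highest in rat 2. The median deviation of the 6 markers was -0.03, -0.001, 0.02 and 0.02 in rats 1 to 4. The part of endothelial cells in the Sult1a1 and Papss2 signals was not tested. The next were Tmem97, the glycine methyltransferase Gnmt, the peroxisomal phytanoyl-CoA hydroxylase Phyh, and the mitochondrial dehydrogenase Hsd17b10, with differences from 0.04 to 0.06. Of the 216 genes, 11 differed from Sult1a1 by less than 0.1, and the median difference was 0.30. The place of Papss2 was not fixed. It was in place 5 without rat 1, in place 8 without rat 2 and in place 2 without rat 4, and without rat 3 its SD fell short of 0.2 and it was not ranked.

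For Sult1e1 the nearest genes were Retsat, a retinol saturase, Eci3 and Ehhadh, enzymes of peroxisomal fatty acid oxidation, the phosphatase Ppm1k, and Chchd10, a mitochondrial protein. Their differences ran from 0.03 to 0.06. Each of the 5 was lowest in rat 2, which their choice by likeness to Sult1e1 implies. Papss2 was in place 50 for Sult1e1, with a difference of 0.19. For Ugt2b1 the smallest difference was 0.39, for the collagen Col3a1, a stellate cell marker, and the median over the 216 genes was 0.83. The measure depends on the size of the deviations. A gene exactly parallel to Ugt2b1 but with the SD of Col3a1, 0.43, would still differ by 0.35. Aldh1a1, Hsd17b2, Dpt and Enpp2 followed with 0.40 to 0.49. In each of these 5 genes rat 3 was the lowest, which a choice by likeness favours. Its deviations ran from -0.62 to -0.43, smaller than that of Ugt2b1. With 4 rats, no test of likeness was made.

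**Figure D3:**
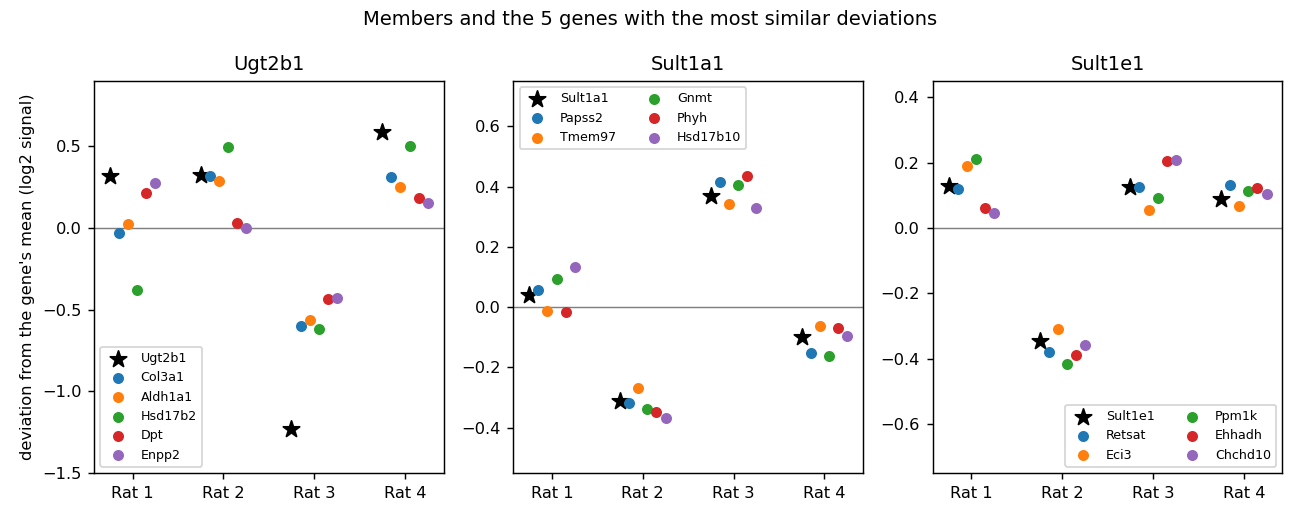
Deviation of each rat (horizontal axis) from the mean of the gene (vertical axis, log2 signal) for Ugt2b1, Sult1a1 and Sult1e1 (stars) and the 5 genes nearest to each (points). The vertical scales differ between the panels. Papss2 lies within 0.06 of Sult1a1 in every rat, whereas Ugt2b1 in rat 3 lies at -1.23, below the 5 genes nearest to it.

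The windows before Sult1a1 and Papss2 are shown because these genes had the most similar deviations, and that of Sult1e1 because rat 2 stood apart in it. These too are reference sequences, not those of the 4 rats. Capitals mark the same sets of letters.
Sult1a1 (GRCr8, chr1:190706113-190706362, minus strand): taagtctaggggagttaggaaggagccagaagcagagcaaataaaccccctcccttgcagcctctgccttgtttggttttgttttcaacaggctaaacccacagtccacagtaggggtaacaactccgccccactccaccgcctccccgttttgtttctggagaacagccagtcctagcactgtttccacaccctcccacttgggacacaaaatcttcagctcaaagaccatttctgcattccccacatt
Papss2 (GRCr8, chr1:239867463-239867712, plus strand): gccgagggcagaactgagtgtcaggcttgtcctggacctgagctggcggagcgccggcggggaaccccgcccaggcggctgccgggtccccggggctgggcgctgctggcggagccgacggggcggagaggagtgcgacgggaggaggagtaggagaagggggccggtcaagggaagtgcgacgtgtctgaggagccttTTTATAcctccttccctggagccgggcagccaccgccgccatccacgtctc
Sult1e1 (GRCr8, chr14:20701230-20701479, plus strand): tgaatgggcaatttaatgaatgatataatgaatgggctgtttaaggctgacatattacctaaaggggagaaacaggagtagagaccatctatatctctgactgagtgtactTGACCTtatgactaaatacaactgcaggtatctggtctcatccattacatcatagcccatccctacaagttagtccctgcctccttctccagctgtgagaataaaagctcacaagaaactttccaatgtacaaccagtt
None of the 5 sets in capitals is found in the window of Sult1a1. That of Papss2 has TATAAA on the other strand, 51 bases before the start. The window of Sult1e1 has AGGTCA on the other strand, 139 bases before the start. Of the other 4 sets, GGGCGG is found on the other strand 125 bases before the start of Sult1a1 and 184 bases before that of Papss2, on the gene strand 130 bases before that of Papss2, and CCAAT 17 bases before that of Sult1e1. The share of G and C was 51.2% for Sult1a1, 70.8% for Papss2, 40.4% for Sult1e1, 33.2% for Ugt2b1 and 38.4% for Ugt2b. Nothing about a factor follows from letters that are missing from a window.

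The other genes of both families were read for context. In all, 7 Ugt genes and 13 Sult genes had a dedicated probe set, and 4 and 5 of them were above background. Beside the members and the Ugt2b genes given above, Sult1c3, a hydroxyarylamine sulfotransferase, had log2 signals of 11.25, 11.45, 11.44 and 11.41 (11.39 ± 0.10, SD, n = 4). Sult1c2a, the neighbour of Sult1c2, had 9.03, 9.20, 8.87 and 9.25, above the level in 2 of 4 rats, and its mean of 9.09 lay close to it. Without rat 4 it was below the level. A second, dimmer probe set of Ugt2b had 9.30, 9.30, 9.27 and 9.50, and was highest in rat 4, whereas the brighter one was highest in rat 1. Its probe sets thus ordered the rats differently.

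The hydroxysteroid sulfotransferases, which also sulfate bile acids and are known to be more abundant in livers of female rats, were below background. Sult2a1 had a mean of 6.97 ± 0.06, Sult2a2 6.94 ± 0.07 and Sult2a6 8.02 ± 0.23 (SD, n = 4 each). All rats were male, and a difference between the sexes was not tested. Sult5a1 had 8.78 ± 0.05, Sult6b2 7.33 ± 0.05 and Sult1d1 6.43 ± 0.02 (SD, n = 4 each). Sult2b1, which sulfates cholesterol in skin, had 7.54 ± 0.03 (SD, n = 4) on one probe set and a flat 7.93 on the other. Ugt2a1, known from the olfactory epithelium, had 8.31 ± 0.07, Ugt2b7 7.97 ± 0.02 and Ugt8, the galactosyltransferase of myelin lipids, 7.11 ± 0.10 on the brighter of its probe sets (SD, n = 4 each).

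The donors came next. Of the genes on the list of UDP-glucuronate supply that were measured, 5 of 5 were above background. With the level at the 98th percentile, 2 were above it. Ugp2, which makes UDP-glucose, had log2 signals of 11.32, 11.19, 11.03 and 11.23 (11.19 ± 0.12, SD, n = 4). Ugdh, which oxidises UDP-glucose to UDP-glucuronate, had 10.89, 10.92, 10.98 and 10.83 (10.90 ± 0.06, SD, n = 4). Pgm1, a phosphoglucomutase, had 10.43 ± 0.17 (SD, n = 4). The list also held Gpi, at 9.53 ± 0.10, and Slc35b1, at 9.15 ± 0.01 and close to the level (SD, n = 4 each). Whether these last genes take part in this supply was not examined. Rat 3 was the lowest for Ugp2, by 0.16 below its mean, and the highest for Ugdh. Slc35d1, which carries UDP-glucuronate into the endoplasmic reticulum, was not analysed here.

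Of the genes of sulfate and PAPS supply, 7 of 11 were above background. Papss2 is given above, and the second synthase, Papss1, had 8.17 ± 0.04 (SD, n = 4), below background. Slc26a1, which carries sulfate across the membrane, had 11.01, 10.68, 10.96 and 10.58 (10.81 ± 0.21, SD, n = 4). Cdo1, which starts the oxidation of cysteine, a source of sulfate, had 12.92 ± 0.13, and Csad, which draws on the same pathway to make taurine, 11.13 ± 0.04 (SD, n = 4 each). Bpnt1, which breaks down the product left by sulfation, had 8.61 ± 0.11 (SD, n = 4), and Slc35b2, which carries PAPS into the Golgi, had a flat 8.34. Both were below background, but above the level of 8.29 found without Myh1.

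**Figure D4:**
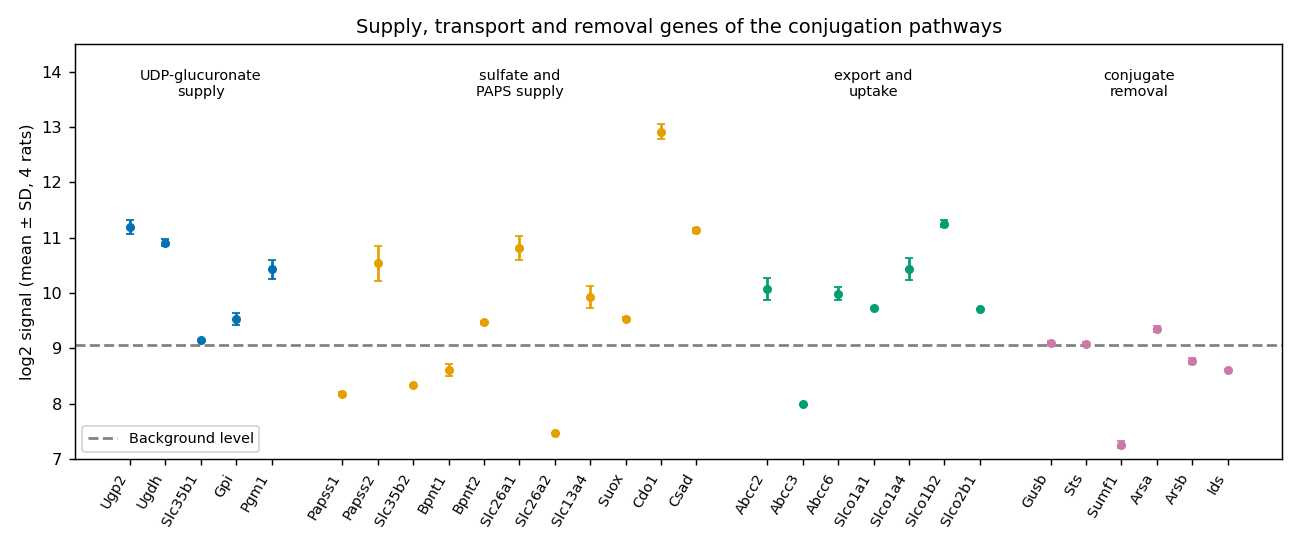
Mean log2 signal (vertical axis) with the SD over 4 rats (error bars, some smaller than the point) for genes of donor supply, export and uptake, and removal of conjugates. The dashed line is the background level of 9.05. All 5 genes on the list of UDP-glucuronate supply lie above it, as do 7 of 11 on that of sulfate and PAPS supply. Levels are not to be compared between genes.

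Of the transporters that move conjugates, 6 of 7 were above background. Abcc2, the pump for glucuronides into bile, had log2 signals of 10.31, 10.15, 9.96 and 9.86 (10.07 ± 0.20, SD, n = 4). Slco1b2 and Slco1a4, importers at the blood side, had 11.25 ± 0.06 and 10.43 ± 0.20 (SD, n = 4 each). Of the enzymes that remove glucuronate or sulfate, 3 of 6 were above background, all near the level. Gusb, the lysosomal glucuronidase, had 9.10 ± 0.04, Sts, the steroid sulfatase, 9.08 ± 0.04, and Arsa, an arylsulfatase, 9.35 ± 0.05 (SD, n = 4 each). The Golgi sulfotransferases of proteins and sugars, which use PAPS too, were above background for 3 of 9 genes. Tpst1, a tyrosylprotein sulfotransferase, had 9.66 ± 0.03 (SD, n = 4), while Tpst2 and Ndst1 were flat at 9.07 and 9.18.

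Of the receptors and factors known to act on these genes, 5 of 17 were above background. The pregnane X receptor Nr1i2 was flat at 9.06, at the level. The constitutive androstane receptor Nr1i3 had 8.61 ± 0.16 (SD, n = 4) and the fatty acid receptor Ppara a flat 7.90, both below it. Without Myh1 the level was 8.29, and Nr1i3 lay above it. Nfe2l2, the factor of the oxidative stress response, had log2 signals of 9.93, 9.84, 9.74 and 9.27 (9.70 ± 0.29, SD, n = 4). Rat 4 was its lowest, and the Ugt1a probe sets were highest in that rat. Hnf4a, a hepatocyte factor, had 9.75, 9.68, 9.86 and 9.38 (9.67 ± 0.21, SD, n = 4). The bile acid receptor Nr1h4 had 9.87, 9.67, 9.99 and 9.58 (9.78 ± 0.18, SD, n = 4). Hnf4a and Nr1h4 were both highest in rat 3, where Sult1a1 was highest and Ugt2b1 lowest. The part of any of these factors in the signals of the members was not tested. Over the lists of other family members, donors, removal, Golgi enzymes, factors and transporters together, 33 of 68 genes measured, or 48.5%, were above background, against 20% over the array. Without Myh1 it was 45 of 68, against 5020 of 10412 over the array. At the 98th percentile it was 9 against 505, and with the Bacillus controls as the level 58 against 8287. The lists were chosen with earlier results known, so these shares only describe them. Ugt2b and Sult6b2 were not on these lists and are not among the 68.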

How the data were processed

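Liver RNA of 4 rats was measured on 1 Affymetrix array each, and the authors deposited a log2 signal for each of 15923 probe sets. The submitters' processing notes name R 2.4.1 and affy 1.12.2 and both RMA and GCRMA, and the sources used here do not say which of these methods gave the values. The median was 8.11 on every array, with values from 5.98 to 15.07. Per the file headers the 4 arrays are of type RAE230A and of 1 lot, run on 1 fluidics station and on 4 modules, while the labels' protocol names RAE230-2. No batch could be fitted.

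Probe sets were named from the platform annotation. It gives 1 symbol for 12789, several for 312 and none for 2822. All 5 member symbols are in the gene table of GRCr8. The brightest probe set by mean stood for a gene. Named were all members, all Ugt and Sult genes, the 2 brightest and the 2 most variable genes of each list, a few genes fixed by name, and the 5 genes most like each variable member. The members and lists were chosen with earlier results of these data known. The background genes include Myh1, with 4 of 5 probe sets above the level. With 1 group no test between conditions was made, and the number of arrays limits the precision. The calculations were tested on simulated data, with noise of SD 0.2 in every set of values. The median SD in these data was 0.07 over genes above background that were not flat, so rates here can differ. In the simulation the gap over the range flagged 1 rat lowered by 1.6 in 46% of 200 cases. Without a planted gap it flagged a rat in 5.15% of 2000 cases. A rat that is not flagged can thus still differ. Alternatives covered the level, the probe set per gene, the scaling and leaving out each rat. Python 3.11.15, numpy 2.4.6 and pandas 2.3.3 were used.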

Additional observations from a re-analysis of the deposited data

Results flagged for a closer look

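Of 69 sets of 4 values of named genes that were not flat, 6 had 1 rat far from the other 3 relative to the range. Over all probe sets above background that were not flat, 5.29% did. Many of the 69 were named for a large SD or for likeness to a member. Their share is therefore not comparable with that or with chance. Small differences can count. Sult1e1 was at 11.92 in rat 2, against 12.36 to 12.40 in the other rats. Retsat, chosen because it resembled Sult1e1, was at 11.51 in rat 2, against 12.01 to 12.02. Ugt2b1 was at 9.02 in rat 3, against 10.57 to 10.84. The dimmer probe set of Ugt2b was at 9.50 in rat 4, against 9.27 to 9.30. Gusb was at 9.05 in rat 3, against 9.11 to 9.12. Apoa1, a hepatocyte marker, was at 12.34 in rat 1, against 12.92 to 13.03.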

How the results depend on the processing

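The 4 members above background remained 4 at the 90th percentile, without Myh1, with quantile normalization and without each rat. The median probe set value per gene, and leaving out probe sets marked s, x or a, could not change this count, because each of the 5 members has 1 probe set without such a mark. They were 3 at the 98th percentile, a level of 10.59, and 5 with the Bacillus controls as the level. The 33 genes above background over the pathway lists became 45 at the 90th percentile and 45 without Myh1. They became 9 at the 98th percentile and 58 with the Bacillus controls. The count of all genes above background, 2082, was 5098 at the 90th percentile, 505 at the 98th, 5020 without Myh1 and 8287 with the Bacillus controls. Without single rats the median SD of the members ran from 0.156 to 0.273. The SD of Sult1a1 was 0.178 without rat 3, and that of Sult1b1 was 0.085 without rat 1. With quantile normalization, an alternative chosen after seeing the data for these values, the measured signal of rat 3 lay 1.66 below the others for Ugt2b1 and rat 2 lay 0.42 below for Sult1e1. A gap over the range has no critical value here for 3 rats, so it was not run without each rat. No paired analysis was possible because there is 1 group.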
